A study of Ophthalmotilapia nasuta and Ophthalmotilapia ventralis with 60 samples.

Results

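The genes described here encode proteins of synaptic vesicles and of the machinery that releases their transmitter, followed over 6 brain parts of 2 cichlid fishes. They were matched by gene symbol, and the symbols were chosen with earlier results of these data known. The symbols were those of synaptotagmins (syt), synapsins, synaptophysin (syp), synaptoporin (synpr), syntaxins (stx) and their binding proteins (stxbp), VAMP and SNAP proteins, complexins (cplx), unc13, rab3, RIM (rims) and piccolo (pclo) genes. In all, 54 of the 36499 genes in the count files carried such a symbol, and 46 of them passed the filter on low counts, as did 11680 genes in all. Of the genes in the files 26287 carry only a locus name, and these make up 45.1% of the genes tested, so that copies of the same families without a symbol are not covered. Symbols such as sv2a, bsn, nsf, cplx1, cplx2, syt2 and vamp2 were not among those matched here.

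A synaptic vesicle carries transmitter to the active zone, where RAB3 and RIM proteins hold it near calcium channels and proteins of the Munc13 family (unc13) prime it. Fusion is driven by SNARE proteins, a VAMP on the vesicle together with a syntaxin and snap25 on the cell membrane, under the control of tomosyn (stxbp5 and stxbp5l) and complexin, and calcium triggers it through synaptotagmins such as syt1. Synapsins tether the reserve of vesicles, and the SNAP adaptors napa and napg help to take used SNARE complexes apart.

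The samples came from wild-caught, mature females of Ophthalmotilapia nasuta and Ophthalmotilapia ventralis, 5 fish of each species, with no treatment and no genetic change. The dissected parts were the telencephalon, olfactory bulbs, diencephalon, optic tectum, cerebellum and brain stem of each fish, with the preoptic area, hypothalamus and pituitary included in the diencephalon, which gave 60 libraries of 3′ mRNA sequencing. The 2 species were collected at different sites and kept in separate aquaria, and O. nasuta was dissected first. Therefore species, collection site, aquarium and order of dissection cannot be told apart. Within each fish the cerebellum was removed first and the diencephalon last, so brain part and the order of removal cannot be told apart either. The paper argued that the differences between parts are linked to function rather than to this order, which was not tested here. Each fish gave all 6 parts, and each part was set against the mean of the remaining 5 in its species, with a term for each fish in the model.

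In O. nasuta fish 5 the library of the olfactory bulbs had a total of 25798 counts and was not used, which leaves 4 fish in that group and 5 in every other. The 59 libraries used held 137128 to 1531632 counts (median 519523), and the synaptic genes took 1.21% to 1.90% of them (median 1.68%). Of genes that mark single parts, 4 of 4 were higher in the brain stem of both species and 4 of 5 in the cerebellum. So were 3 of 3 in each of the diencephalon, olfactory bulbs and optic tectum, and 3 of 4 in the telencephalon. Of all genes, 9.33% to 15% were higher in a part of both species. These markers were listed with earlier results of these data known, so the counts are no independent check of the dissection. In 57 of the 59 libraries the nearest library was one of the same part. The bulbs of fish 4 of O. nasuta and of fish 1 of O. ventralis were each nearest to a telencephalon of their own species. Counts of genes called and the bulb results of vamp1, snap25, syp and unc13b are given with and without them. Bulb values of the other genes include them. Levels are given as CPM, scaled counts per 1000000 counts of the library. The kit makes 1 fragment per transcript, so that CPM need no correction for transcript length. In whole tissue, a lower level from fewer cells of a type and one from less RNA per cell cannot be told apart.

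All 46 tested genes together reached a mean of 15310 to 18709 CPM in the 12 groups of part and species. The highest sums were those of the cerebellum, with 18709 ± 648 CPM in O. nasuta against 18668 ± 1328 CPM in the other species (SD, n = 5 each). The lowest was that of the bulbs of O. ventralis, where the sum spread from 11978 to 18193 CPM over the 5 fish and so spanned the means of all other groups outside the cerebellum. The paper reports too little RNA in some bulb samples. It proposes that the difficult dissection and low yield of these small parts may explain the larger spread among bulb replicates. Their part in the spread of bulb values here was not tested. One gene, snap25, made up 37.6% of the summed level, followed by syt1 with 11.1% and pclo with 6.37%. Between the lowest and the highest of the 12 group means, snap25 differed 1.51-fold, whereas rims4 differed 22.6-fold, vamp1 47.8-fold and stx3 16.2-fold. In the 59 libraries 36 of the tested genes had a read in every one.

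The first question was which genes differ between brain parts, and a joint edgeR quasi-likelihood test over all 12 comparisons of a part with the other parts was passed by 38 of 46 synaptic genes (82.6%), against 76.5% of all genes tested. A gene is called higher or lower in a part where it also passed that single comparison at an adjusted p of 0.05. Called in the same direction in both species in at least 1 part were 30 of 46 (65.2%), against 49.7% of all genes, and none was called in opposite directions in the species in any part. The share of all genes called in opposite directions is not given, so this absence cannot be read as a trait of the synaptic genes. The brain part with the highest mean level was the same in both species for 30 of the 46 genes (65.2%), against 60.7% of all genes. The genes rims4 and vamp1 were among the 200 genes of the whole data set with the lowest joint p.

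The genes moved in both directions in every part. Because each part was set against the mean of the other 5, an extreme level in 1 part also shifts the comparisons of the rest. The calls of a gene in different parts are therefore not independent, and nor are the counts per part. In the cerebellum 13 synaptic genes were higher and 9 lower in both species (28.3% and 19.6%, against 15% and 17.1% of all genes), together 47.8% against 32%. The telencephalon had 9 higher and 8 lower (19.6% and 17.4%, against 12.6% and 9.01%), together 37% against 21.6%. The olfactory bulbs had 6 higher and 8 lower (13% and 17.4%, against 9.33% and 5.24%), together 30.4% against 14.6%. In the diencephalon 6 were higher and 7 lower (13% and 15.2%, against 9.36% and 4.92%), together 28.3% against 14.3%, and in the optic tectum 6 were higher and 6 lower (13% each, against 10.2% and 5.6%), together 26.1% against 15.8%. The brain stem had the fewest, with 4 higher and 4 lower (8.7% each, against 9.85% and 4.09%), together 17.4% against 13.9%, so that the share of higher genes there was close to that of all genes. Without the 2 bulb libraries that lay nearest to the telencephalon the bulbs had 15 (snap25 added), the brain stem 7 (syn2 lost), the cerebellum 23, the diencephalon 14 and the optic tectum 13, and the telencephalon still had 17, with syp added and rab3a lost. The telencephalon had 11 without O. nasuta fish 2, when rab3a, rab3c, snap91, stxbp5l, syt12 and vamp3 were not called. The shares of all genes above are those with all 59 libraries. No such share is given for the fits with libraries left out, so an excess over all genes cannot be read from their counts. Over the 46 genes the median log2 fold change lay between −0.09 and 0.05 in each of the 12 comparisons, while it lay between −0.04 and 0.04 over all genes. The median absolute log2 fold change was 0.23 to 0.63 over the 46 genes and 0.28 to 0.55 over all genes. In the cerebellum it was 0.53 and 0.63, against 0.53 and 0.55. In the telencephalon it was 0.36 in both species, against 0.38 and 0.40. Larger shares called thus did not always go with larger changes. The 46 genes were not matched to all genes in level, and the part of level in the shares called was not tested. Sums of marker genes of cell types differed between the parts as well: 6 tested of 14 listed general neuronal genes reached 4121 to 4772 CPM in the cerebellum of both species and at most 4044 CPM elsewhere, and 6 tested of 10 listed oligodendrocyte genes 1853 to 3333 CPM in the brain stem and at most 1153 CPM elsewhere. The neuronal genes did not all go the same way. In the cerebellum 4 were called higher and uchl1 lower in both species (against 15% and 17.1% of all genes). In the telencephalon 3 were called higher and 2 lower (against 12.6% and 9.01%). The part of such cell types in the counts of synaptic genes was not tested.

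**Figure D1:**
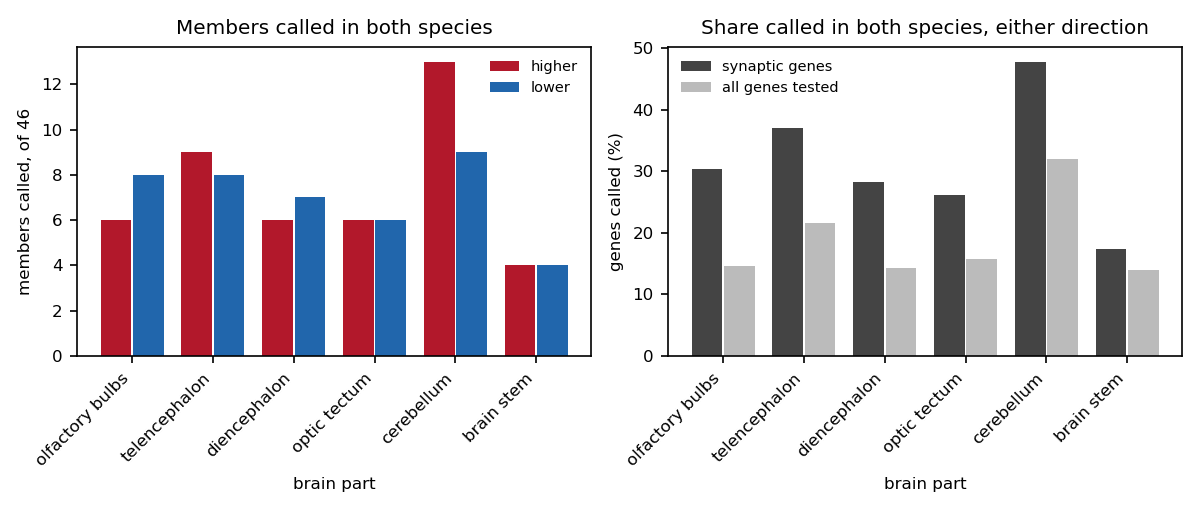
Synaptic genes called in the same direction in both species, by brain part. Left, number of genes higher (red) and lower (blue) than in the other parts, of 46 tested. Right, percentage called in either direction among the 46 synaptic genes (dark) and all 11680 genes tested (light). The cerebellum has the most, 22 of 46 (47.8%, against 32% of all genes), and the brain stem the fewest, 8 of 46 (17.4%, against 13.9%).

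**Figure D2:**
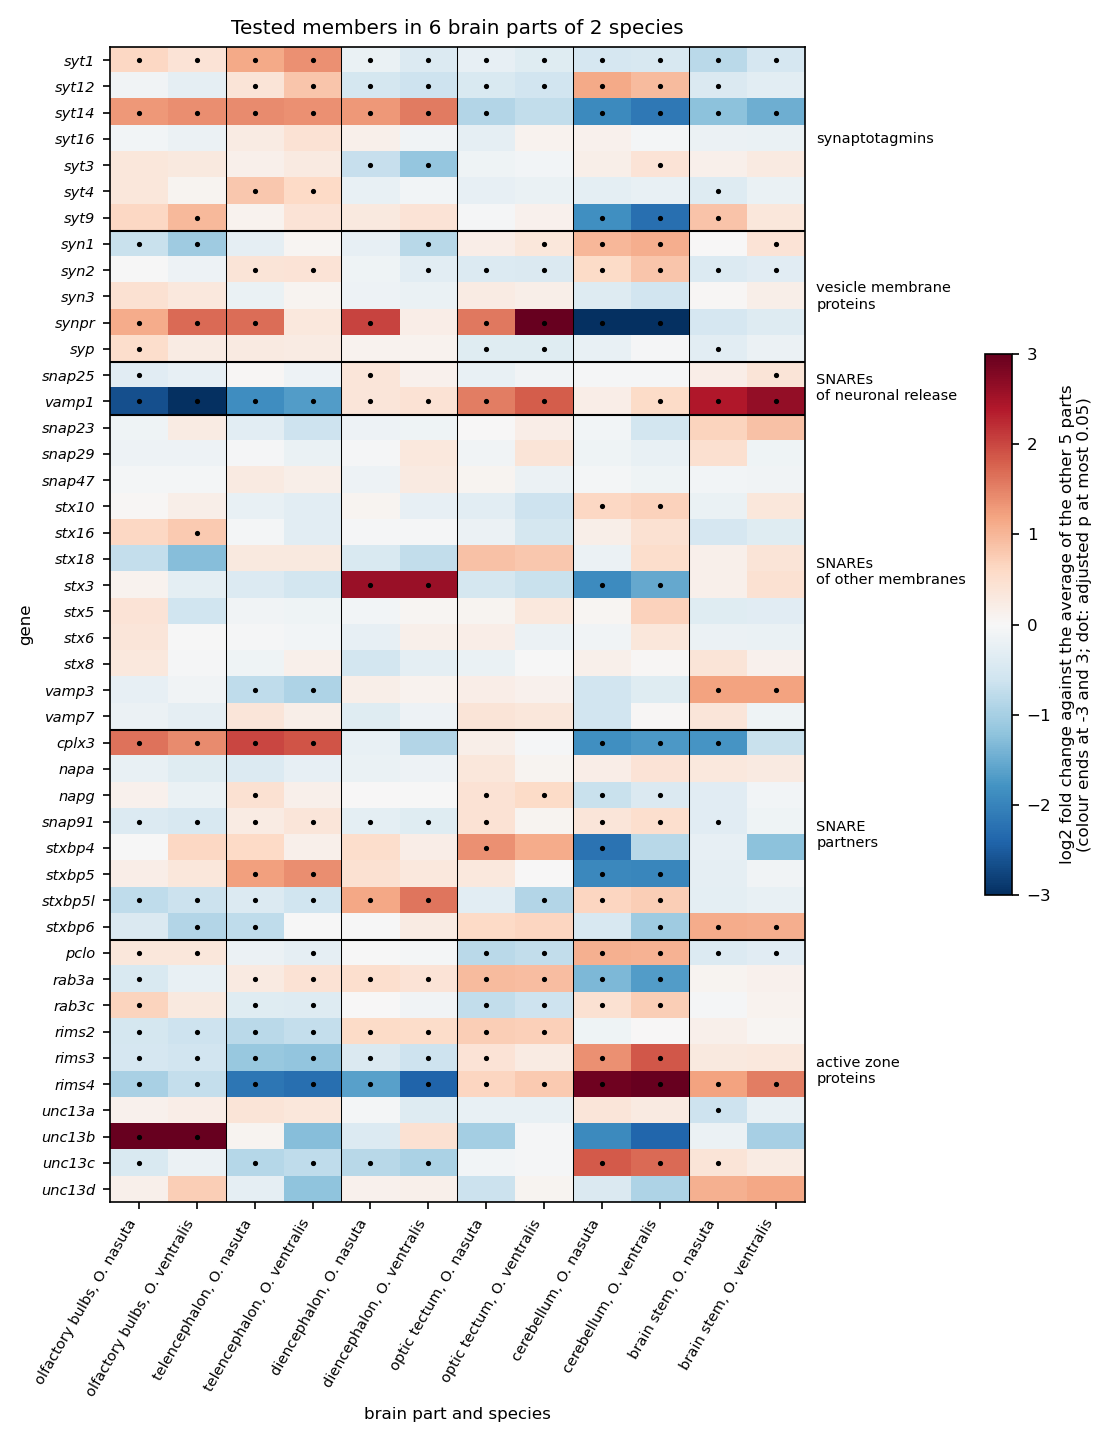
Log2 fold change of 44 of the 46 tested genes in each brain part against the average of the other 5 parts, 1 column per part and species, rows grouped by role. Red is higher and blue lower, colours end at −3 and 3, and a dot marks an adjusted p of at most 0.05. Of these genes 0 have dotted cells of opposite colour in the 2 species of a part (the share over all genes is not given), and synpr has dots in the diencephalon and telencephalon of O. nasuta alone.

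Among the synaptotagmins, syt1, the main calcium sensor of fast release, was higher in the telencephalon. In O. nasuta the telencephalon of fish 1 to 5 had 3029, 3528, 2876, 2984 and 3138 CPM, and in O. ventralis 3680, 4313, 4349, 3947 and 3639 CPM. No library of another part of the same species reached these levels, and the highest values elsewhere were 2629 and 3202 CPM. On the log2 scale the difference from the other parts was 1.14 (SE 0.086, adjusted p = 2.55e-20) and 1.36 (SE 0.084, adjusted p = 4.29e-25), respectively, with 5 of 5 fish higher in each species. The second level was that of the olfactory bulbs, with 2309 ± 332 CPM (n = 4) and 2331 ± 627 CPM (SD, n = 5), where syt1 was also higher than the average (log2 fold change 0.62 and 0.41). In each of the other 4 parts it was lower in both species, with log2 fold changes of −0.21 to −0.81. The calls in the diencephalon and optic tectum were lost in O. nasuta without any one of its fish 2 to 5 (adjusted p 0.0815 to 0.196), with no low-count filter or with all 60 libraries, and that in the diencephalon also without fish terms.

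The gene syt14, whose mammalian product does not bind calcium, was higher in the olfactory bulbs, telencephalon and diencephalon of both species, with log2 fold changes of 1.30 to 1.56, and lower in the cerebellum and brain stem. In the cerebellum it averaged 7.04 ± 5.93 and 4.43 ± 3.19 CPM in O. nasuta and O. ventralis (SD, n = 5 each), with log2 fold changes of −1.90 (SE 0.39, adjusted p = 4.22e-05) and −2.14 (SE 0.38, adjusted p = 4.19e-06). These cerebellar values overlapped those of the brain stem, which were 9.43 ± 5.03 and 6.69 ± 2.41 CPM.

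By contrast, syt12, a synaptotagmin that likewise lacks calcium binding in mammals, was higher in the cerebellum. Its cerebellar levels were 253, 300.4, 271, 272 and 289 CPM in O. nasuta, all above the 196 CPM that the other parts reached at most. In O. ventralis they were 346, 250.4, 265, 270.0 and 241 CPM and overlapped the telencephalon, where fish 3 had 304 CPM. For the cerebellum the log2 fold changes were 1.13 (SE 0.14, adjusted p = 3.81e-11) and 0.94 (SE 0.13, adjusted p = 6.42e-09). The telencephalon was the other part with a higher level in both species (0.39 and 0.82), and the diencephalon and optic tectum had lower ones (−0.45 to −0.61). In O. nasuta these calls had an adjusted p of 0.0520 to 0.207 without fish 1, 2, 4 or 5 for the telencephalon or fish 3, 4 or 5 for the optic tectum, and of 0.0610 without fish 2 for the diencephalon. Under DESeq2 the telencephalon had 0.0518.

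The gene syt4, which in mammals acts on dense-core vesicles, was higher in the telencephalon, with 473 ± 63.9 CPM in O. nasuta against 383 ± 66.3 CPM in the other species (SD, n = 5 each). Relative to the other parts it changed by 0.82 (SE 0.11, adjusted p = 4.38e-10) and 0.61 (SE 0.11, adjusted p = 5.01e-06) on the log2 scale, with 5 of 5 fish higher in each, although single libraries of other parts reached 478 and 331 CPM. The calcium sensor syt3 was lower in the diencephalon (−0.69 and −1.16) and syt9, another calcium sensor, in the cerebellum (−1.85 and −2.26). The joint test was not passed by syt16.

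Of the vesicle membrane proteins, syn1 (synapsin) was higher in the cerebellum. The levels there were 492, 525, 439.8, 616 and 626 CPM in O. nasuta, while O. ventralis had 520.0, 507, 588, 573 and 610 CPM. All lay above every library from elsewhere in the brains of that species, where the highest values were 384 and 448 CPM. This gave log2 fold changes of 0.99 (SE 0.10, adjusted p = 2.31e-13) and 1.09 (SE 0.10, adjusted p = 8.60e-16). In the olfactory bulbs syn1 was lower in both species (−0.67 and −1.08).

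Its relative syn2 was also higher in the cerebellum, with 418 ± 40.8 and 383 ± 89.4 CPM (SD, n = 5 each) and log2 fold changes of 0.58 (SE 0.11, adjusted p = 6.62e-06) and 0.83 (SE 0.10, adjusted p = 1.45e-10). Unlike syn1, syn2 was higher in the telencephalon (0.38 and 0.41) and lower in the brain stem and optic tectum (−0.33 to −0.43). Its brain stem call was lost in O. ventralis without any one of 7 of the 10 fish (all but O. nasuta fish 1 and 2 and O. ventralis fish 2), with values of −0.31 to −0.34 and adjusted p of 0.0527 to 0.128, and also with no low-count filter, with all 60 libraries and without the 2 bulb libraries nearest to the telencephalon. The third synapsin, syn3, did not pass the joint test. Synaptophysin, a major vesicle protein encoded by syp, varied little, from 658 to 1100 CPM over the 12 group means. It was lower in the optic tectum of both species (−0.37 each), and for the bulbs its log2 fold changes were 0.54 (SE 0.10, adjusted p = 2.06e-05) and 0.24 (SE 0.096, adjusted p = 0.121). The second was 0.35 without O. ventralis fish 2 (adjusted p = 0.00808). Without the 2 bulb libraries nearest to the telencephalon the values were 0.56 and 0.12 (adjusted p = 3.07e-05 and 0.932).

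Synaptoporin (synpr), a protein related to synaptophysin, was nearly without reads in the cerebellum, where each species had 1 read over its 5 libraries. The other parts together had 636 reads in O. nasuta and 299 in O. ventralis, so that their level was 98.1-fold (95% counting interval 17.5 to 3880, exact binomial) and 79.5-fold (14.2 to 3152) that of the cerebellum. Such intervals cover counting error only. The gene was called lower in the cerebellum of both species (adjusted p = 1.42e-10 and 3.98e-08). The highest mean in O. ventralis was that of the optic tectum, 72.8 ± 18.8 CPM (SD, n = 5), and synpr was called higher there in both species (log2 fold change 1.57 and 3.29). It was also called higher in the bulbs (1.11 and 1.70), where 3 of 4 and 2 of 5 fish were above the mean of their other parts. That call did not hold without O. nasuta fish 3 or 4 or O. ventralis fish 4, with values down to 0.55 and adjusted p of 0.0553 to 1. The size of each of these fitted values depends on the prior count, since the cerebellum enters the mean of the other parts.

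Among the SNAREs of neuronal release, vamp1 (synaptobrevin 1), which in mammals prevails in brain stem and spinal cord, had a steep gradient between parts. In the brain stem of fish 1 to 5 it had 734, 458, 723, 573 and 602 CPM in O. nasuta, with 550, 795, 729, 623 and 622 CPM in the other species. In the olfactory bulbs it had 21.6, 28.0, 22.1 and 83.9 CPM in fish 1 to 4 of O. nasuta and 30.4, 7.28, 2.80, 19.3 and 9.69 CPM in O. ventralis. Every brain stem library lay above every library of the other parts in both species. The bulb value of O. nasuta fish 4 stood apart from the other 3 fish and lay above all telencephalon libraries of its species, which had 42.4 to 58.9 CPM.

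The log2 fold changes of vamp1 in the bulbs were −2.64 (SE 0.22, adjusted p = 8.75e-18) and −3.81 (SE 0.24, adjusted p = 5.83e-23). Without the 2 bulb libraries nearest to the telencephalon these were −3.20 and −4.32. The brain stem followed in the other direction with 2.41 and 2.65, then the optic tectum (1.54 and 1.81) and the diencephalon (0.37 and 0.44), whereas the telencephalon was lower (−1.87 and −1.67). In the diencephalon the call of vamp1 was lost without fish 1, 3 or 5 of O. nasuta or fish 3, 4 or 5 of O. ventralis (0.27 to 0.42, adjusted p 0.0515 to 0.285) and under DESeq2 (adjusted p = 0.0692). The order of the means was brain stem, optic tectum, a middle pair of diencephalon and cerebellum whose values overlapped, then telencephalon and olfactory bulbs, in both species.

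The most abundant gene, snap25, the membrane SNARE of transmitter release, was not called in the same direction in both species in any part. The group means ran from 5310 ± 608 CPM in the olfactory bulbs (n = 4) to 8011 ± 1009 CPM in the diencephalon (SD, n = 5), both in O. nasuta. In the brain stem it averaged 7287 ± 1001 CPM in O. nasuta and 7560 ± 679 CPM in the other species (SD, n = 5 each), with log2 fold changes of 0.20 (SE 0.10, adjusted p = 0.491) and 0.40 (SE 0.098, adjusted p = 0.00178). Without O. ventralis fish 2 the second value was 0.32 with an adjusted p of 0.0540. Among the bulb libraries of O. ventralis, fish 1 and 3 had 7789 and 7852 CPM and the other 3 fish 3369 to 4397 CPM. With both libraries nearest to the telencephalon left out, snap25 was called lower in the bulbs of both species (−0.42 and −0.41).

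The SNAREs of other membranes are the remaining syntaxins and VAMPs with snap23, snap29 and snap47. Many of them, though not stx3, work in the Golgi apparatus, endosomes or lysosomes of all cells. The group had 12 tested genes. Of these 12, stx3, vamp3 and stx10 were called in the same direction in both species in some part, against 49.7% of all genes. The joint test, passed by 76.5% of all genes, was not passed by snap29, snap47, stx5, stx6, stx8 and vamp7. Together with syn3 and syt16 these genes ranged from 16.5 to 53.1 CPM in mean level, and none had a log2 fold change beyond 0.69 in either direction. The joint test was passed by snap23, stx16 and stx18 with no part called in both species.

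Among them was stx3, the syntaxin of ribbon synapses and of apical membranes in mammals, which was concentrated in the diencephalon. Fish 1 to 5 had 110, 175, 121, 140 and 224 CPM there in O. nasuta and 103, 105, 166, 163 and 123 CPM in O. ventralis. The highest library of any other part had 61.3 and 44.0 CPM, so that the groups did not overlap. The diencephalon had log2 fold changes of 2.59 (SE 0.16, adjusted p = 1.78e-24) and 2.58 (SE 0.17, adjusted p = 2.50e-23). The cerebellum had the lowest means, 9.49 ± 8.04 and 10.9 ± 5.14 CPM (SD, n = 5 each), and stx3 was called lower there (−1.89 and −1.54). The dissected diencephalon includes the pituitary, and pomc, the 1 tested of 13 listed pituitary genes, ranged there from 0 to 22.9 CPM in O. nasuta and from 0 to 63.5 CPM in O. ventralis, against at most 5.06 CPM elsewhere. Its part in the level of stx3 was not tested.

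The endosomal vamp3 was higher in the brain stem, with 53.1 ± 14.6 and 49.1 ± 18.8 CPM (SD, n = 5 each) and log2 fold changes of 1.21 (SE 0.21, adjusted p = 1.81e-06) and 1.20 (SE 0.21, adjusted p = 2.58e-06), and lower in the telencephalon (−0.76 and −0.93), a call lost without fish 2, 3 or 5 of O. nasuta or fish 4 or 5 of O. ventralis (adjusted p 0.0843 to 0.213) or with no low-count filter. Oligodendrocyte genes and 3 tested of 8 listed genes of microglia and leukocytes had their highest mean sums in the brain stem too, the latter with 686 and 692 CPM, and their part was not tested. The Golgi syntaxin stx10 was higher in the cerebellum, with 44.4 ± 7.26 and 35.9 ± 4.91 CPM and log2 fold changes of 0.63 (SE 0.20, adjusted p = 0.0420) and 0.68 (SE 0.20, adjusted p = 0.0143). Leaving out any of fish 1 to 4 of O. nasuta or fish 2 of O. ventralis raised the adjusted p in O. nasuta to 0.0502 to 0.399, and leaving out fish 1 of O. ventralis raised that in O. ventralis to 0.442. In the olfactory bulbs stx16, another Golgi syntaxin, had log2 fold changes of 0.62 (SE 0.23, adjusted p = 0.106) and 0.78 (SE 0.22, adjusted p = 0.00822), the second of which rested on fish 3 (72.8 CPM) and had an adjusted p of 0.380 without it.

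Genes for partners of the SNAREs changed in different directions in the same part. Both tomosyns, which in mammals inhibit SNARE assembly, are an example. In the cerebellum stxbp5 was lower, with 108, 39.6, 40.0, 49.8 and 78.1 CPM in O. nasuta against 56.5, 65.0, 41.1, 92.0 and 79.1 CPM in O. ventralis. These lay below every library of the other parts in O. nasuta, whereas in O. ventralis the olfactory bulbs of fish 2 (72.8 CPM) fell within their range. Against the other parts the log2 fold changes were −1.93 (SE 0.22, adjusted p = 3.88e-10) and −1.95 (SE 0.21, adjusted p = 5.08e-11). The telencephalon was the high end, with 382 ± 53.9 and 452 ± 30.5 CPM and log2 fold changes of 1.22 and 1.39.

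The second tomosyn, stxbp5l, was higher in the cerebellum (0.63 and 0.75) and highest in the diencephalon. There fish 1 to 5 had 396, 394, 320, 375 and 473 CPM in O. nasuta, while O. ventralis had 478, 494, 553, 542 and 501 CPM. The O. ventralis values lay above all other parts, and in O. nasuta the cerebellum reached 346 CPM and overlapped. It was higher than the mean of the other parts by 1.15 (SE 0.12, adjusted p = 6.08e-14) and 1.60 (SE 0.11, adjusted p = 9.61e-22) on the log2 scale. It was lower in the bulbs and telencephalon of both species (−0.41 to −0.76), although the telencephalon of O. nasuta had an adjusted p of 0.0567 to 0.0973 without fish 1, 2 or 4 and of 0.112 with no low-count filter.

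Complexin 3 (cplx3), which regulates fusion and in mammals is typical of retinal synapses, was higher in the telencephalon and olfactory bulbs. In the telencephalon it had 231, 196, 184, 185 and 251 CPM in O. nasuta against 174, 158, 176, 163 and 157 CPM in O. ventralis. Bulb levels ranged from 94.0 to 340.2 CPM and from 60.9 to 215 CPM, respectively, so that both parts overlapped. In the diencephalon, optic tectum, cerebellum and brain stem no library exceeded 99.0 CPM. The telencephalon had log2 fold changes of 2.01 (SE 0.21, adjusted p = 1.17e-10) and 1.88 (SE 0.23, adjusted p = 3.67e-09), the olfactory bulbs of 1.64 and 1.42, and the cerebellum of −1.84 and −1.72.

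The clathrin adaptor AP180 (snap91), which matched by its symbol and recovers vesicle membrane after fusion, was lower in the olfactory bulbs and diencephalon and higher in the cerebellum and telencephalon of both species. In the bulbs it had 349 ± 76.2 CPM (n = 4) and 322 ± 52.6 CPM (SD, n = 5), with log2 fold changes of −0.41 (SE 0.11, adjusted p = 0.00392) and −0.48 (SE 0.11, adjusted p = 3.06e-04). Without O. nasuta fish 1 the first had an adjusted p of 0.0863, and with no low-count filter it had 0.0553. The O. nasuta calls were also lost for the diencephalon without fish 1, 2, 3 or 4 and for the telencephalon without fish 1, 2, 4 or 5 (adjusted p 0.0564 to 0.207), both also with no low-count filter, and for the cerebellum without fish 3 (0.0661). Of the other partners, stxbp6 (amisyn, a protein that binds SNAREs) was higher in the brain stem (1.10 and 1.08) and napg was lower in the cerebellum (−0.67 and −0.43) and higher in the optic tectum (0.43 and 0.57). Of these, napg lost its cerebellar call without O. ventralis fish 1 or 4 (adjusted p 0.177 and 0.202) and its tectal call without O. nasuta fish 2 (0.108), and both with no low-count filter. The joint test was passed by napa and stxbp4 with no part called in both species.

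Of the 10 active zone genes, rims4 encodes a short RIM protein, and its level in the cerebellum was above every library of the other parts in both species. Fish 1 to 5 had 1006, 964, 1011, 1301 and 1316 CPM in O. nasuta, while O. ventralis had 1097, 1095, 1093, 1035 and 1287 CPM. The next part, the brain stem, reached 575 and 648 CPM. The cerebellum had log2 fold changes of 2.91 (SE 0.13, adjusted p = 1.66e-29) and 3.05 (SE 0.13, adjusted p = 7.46e-31).

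In the other direction, rims4 was lowest in the telencephalon and diencephalon, with means of 60.5 ± 13.5 and 81.6 ± 22.5 CPM in O. nasuta, and of 53.2 ± 15.8 and 49.6 ± 15.2 CPM in O. ventralis (SD, n = 5 each). These parts had log2 fold changes of −2.16 and −1.63 in O. nasuta and −2.27 and −2.40 in O. ventralis, and their ranges overlapped within each species. It was called in all 6 parts of both species, being also higher in the brain stem (1.21 and 1.53) and optic tectum (0.64 and 0.79) and lower in the olfactory bulbs (−0.97 and −0.71).

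The related rims3 had 388, 505, 489, 441 and 574 CPM in the cerebellum of O. nasuta and 541, 520, 553, 489.5 and 677 CPM in that of O. ventralis, above all other parts, which reached 328 and 336 CPM. These are log2 fold changes of 1.38 (SE 0.12, adjusted p = 6.63e-18) and 1.86 (SE 0.11, adjusted p = 3.32e-26), and the lowest part was the telencephalon (−1.13 and −1.19). The longer RIM gene rims2 followed another order, with higher levels in the optic tectum (0.74 and 0.71) and diencephalon (0.57 and 0.54) and lower ones in the telencephalon (−0.82 and −0.71) and olfactory bulbs (−0.52 and −0.63).

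The priming factor unc13c, which in rodents is typical of cerebellar granule cells, was higher in the cerebellum. Its levels were 460, 432, 460, 659 and 455 CPM in O. nasuta against 503, 499, 438, 430.2 and 531 CPM in O. ventralis, and no other part exceeded 280 and 252 CPM. Its log2 fold changes there were 1.84 (SE 0.11, adjusted p = 1.16e-26) and 1.70 (SE 0.10, adjusted p = 3.09e-25). In the diencephalon and telencephalon it was lower (−0.76 to −0.96). The main priming factor of most synapses, unc13a, had 313 to 632 CPM over the group means and was called in no part of both species, and neither was unc13d, which in mammals acts in granule release by immune cells.

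The vesicle GTPase rab3a was lower in the cerebellum, with 189, 172, 200, 206 and 195 CPM in O. nasuta, while O. ventralis had 171, 130, 168, 154 and 158 CPM. Every library of the other parts lay higher, from 263 and 305 CPM upwards. The differences from the other parts were −1.34 (SE 0.11, adjusted p = 7.82e-18) and −1.68 (SE 0.11, adjusted p = 7.86e-23) on the log2 scale. In the optic tectum rab3a was highest, with 726 ± 62.6 and 711 ± 112 CPM (SD, n = 5 each; log2 fold change 0.94 in both species). Its relative rab3c was higher in the cerebellum (0.45 and 0.73) and lower in the optic tectum (−0.74 and −0.63) and telencephalon (−0.35 and −0.39). The last call was lost without any one of O. nasuta fish 1 to 3 or O. ventralis fish 3 to 5 (adjusted p 0.0588 to 0.211), with no low-count filter or with all 60 libraries. Piccolo (pclo), a large scaffold of the active zone, had 1958 ± 226 and 1817 ± 319 CPM in the cerebellum, above every library of the other parts (log2 fold change 1.06 and 1.04), and 669 ± 58.9 and 645 ± 84.4 CPM in the optic tectum (−0.81 and −0.73).

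**Figure D3:**
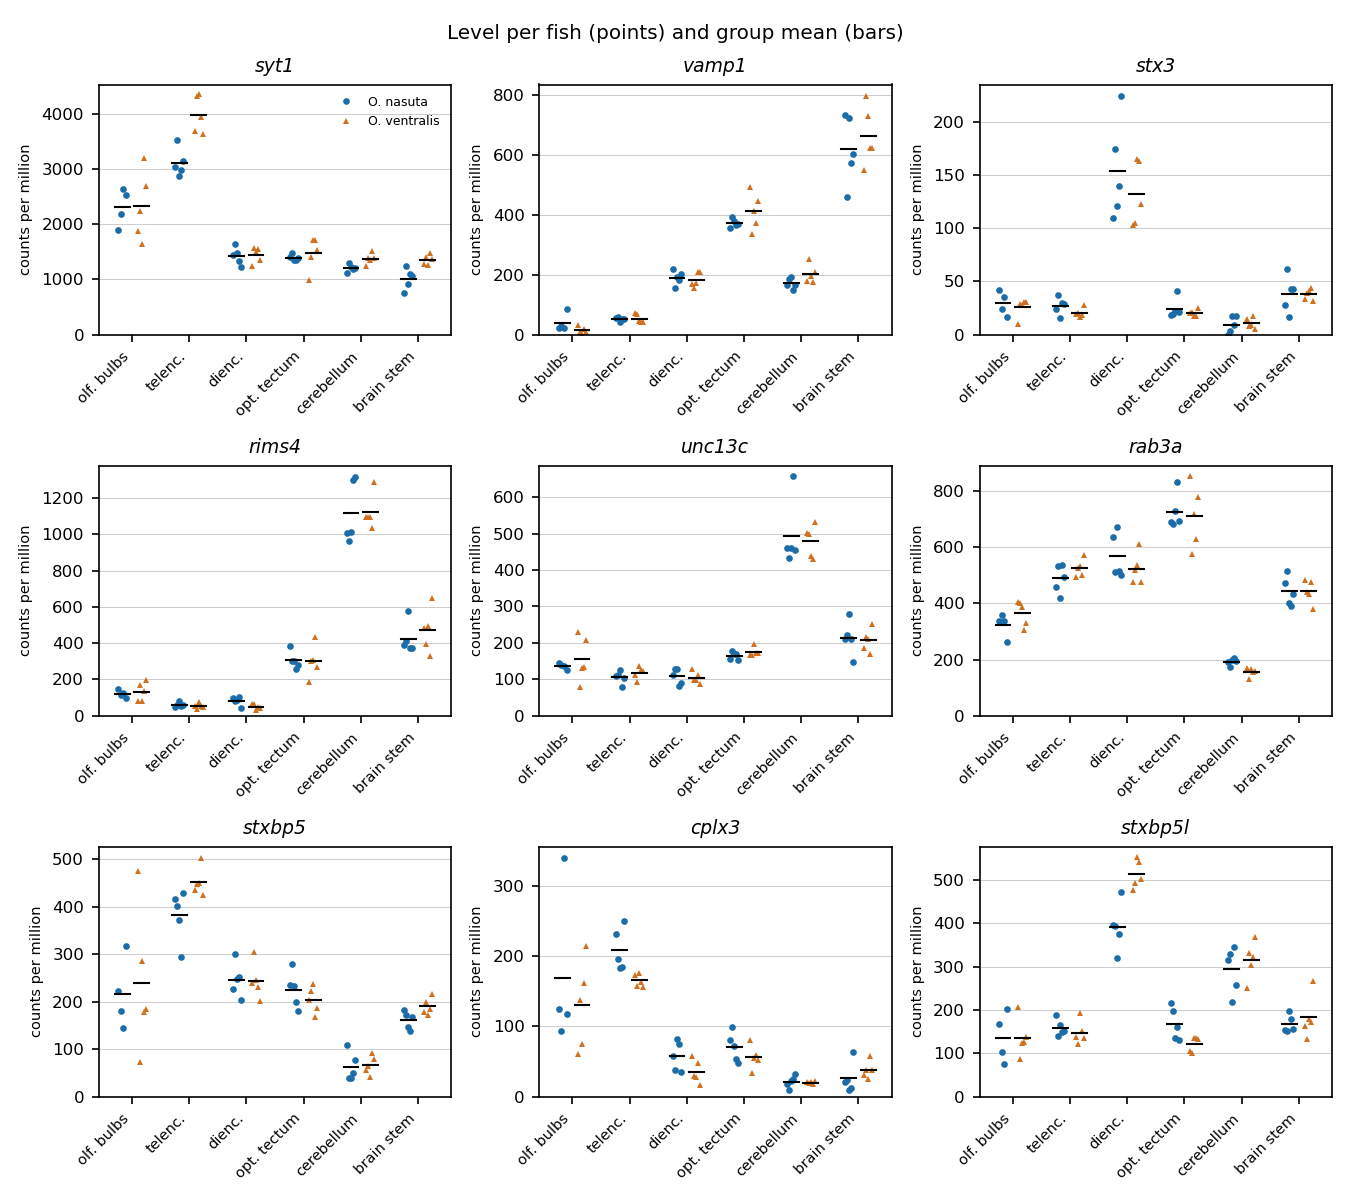
Level of 9 synaptic genes in each brain part, in CPM, 1 point per fish (blue circles O. nasuta, orange triangles O. ventralis, 5 fish per group and 4 in the olfactory bulbs of O. nasuta), with the group mean as a bar. Cerebellar levels of rims4 start at 964 CPM and those of unc13c at 430 CPM, above all other parts, while those of rab3a end at 206 CPM, below all others. Levels of syt1 are highest in the telencephalon, vamp1 in the brain stem and stx3 in the diencephalon.

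The gene unc13b, another of the Munc13 family, was singled out after its values were seen. In the olfactory bulbs of O. nasuta fish 1 to 4 it had 51.1, 36.0, 58.2 and 2.80 CPM, and in those of O. ventralis fish 1 to 5 it had 0, 124, 11.2, 92.5 and 79.5 CPM. In the other 5 parts no library exceeded 12.4 CPM. The lowest bulb values, 2.80 and 0 CPM, were those of the 2 libraries nearest to the telencephalon, while all other bulb libraries but that of O. ventralis fish 3 lay above the libraries of the other parts. Its fitted log2 fold changes were 3.41 and 4.24 with all libraries (adjusted p = 1.49e-08 and 2.19e-11) and 3.86 and 4.49 without those 2 (adjusted p = 8.58e-13 and 3.56e-16). The gene passed the filter on low counts only through 6 bulb libraries above 15 CPM. These p-values are therefore no independent support for a higher level in the bulbs. In the bulbs of O. ventralis the sum of 3 genes of microglia and leukocytes ranged from 204 to 1434 CPM, and its part in the spread was not tested. The gene syt10, which in mice is expressed in the olfactory bulb, did not pass the filter and had at most 11 counts in a library. It had 10.7, 7.86, 10.3 and 0 CPM in the bulbs of O. nasuta and 1.96, 29.2, 8.28, 20.6 and 15.1 CPM in those of O. ventralis. The lowest value of each species fell in the 2 libraries nearest to the telencephalon. There 3 counts are 8.15 and 5.89 CPM, so these values rest on few reads and are no further sign that those libraries differ.

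Low counts kept 8 of the 54 genes out of all tests: cplx4, stx2, stx12, stx17, stx19, stxbp3, syt10 and vamp4. They had 5 to 246 counts over the 59 libraries and a mean of 0.163 to 7.48 CPM. Where no read was seen in a library, a level of up to 3 counts remains possible.

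Pairs of related genes were then compared within a library, where the scaling between libraries cancels except for genes with few reads, whose ratios depend on depth through the prior count of 2. The log2 ratio of the 2 levels in a part was set against its mean over the other parts of the same fish, and the fish of both species were tested together with an exact two-sided sign-flip permutation test. Of 16 pairs considered, 6 had both genes among those tested, which gave 36 comparisons of a pair and a part. The adjusted p is over these 36, and 23 were called. Pairs of other genes were not tested, so this count has no share to be set against. The smallest p the test can give is 0.00195 with 10 fish and 0.00391 with 9.

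The ratio of rab3a to rab3c was lower in the cerebellum in 10 of 10 fish, by 2.12 on the log2 scale (SD 0.35, adjusted p = 0.00541). The mean log2 ratio there was −0.89 in O. nasuta and −1.60 in O. ventralis, so that rab3c exceeded rab3a. In the optic tectum it was 1.98 and 1.67, higher than in the other parts by 1.58 (SD 0.22, 10 of 10 fish, adjusted p = 0.00541). The olfactory bulbs were lower in 9 of 9 fish (−0.78), and the telencephalon and diencephalon higher in 10 of 10 (0.69 and 0.49).

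For syn1 over syn2, the optic tectum and brain stem were higher by 0.65 and 0.56 in 10 of 10 fish, and the cerebellum by 0.32 in 9 of 10. The telencephalon (−0.52, 10 of 10 fish) and olfactory bulbs (−0.74, 9 of 9 fish) were lower. For syn3 over syn2, the cerebellum (−1.18) and telencephalon (−0.42) were lower and the optic tectum (0.58) and olfactory bulbs (0.56) higher, the last of which had an adjusted p of 0.0511 without O. nasuta fish 4 or O. ventralis fish 2, 4 or 5.

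The ratio of synpr to syp was higher in the optic tectum by 2.24 (SD 0.87, 10 of 10 fish, adjusted p = 0.00541) and lower in the brain stem by 0.50 (8 of 10 fish, adjusted p = 0.0459), a call that was lost on leaving out any of 8 of the 10 fish (adjusted p 0.0506 to 0.0917). In the cerebellum it was lower by 2.75 in 10 of 10 fish, a size that depends on the prior count of 2 because synpr had 1 read per species there. That cerebellar ratio enters the mean of the other parts, so the sizes for optic tectum and brain stem depend on the prior count too. Mean log2 ratios of synpr to syp in the optic tectum, diencephalon and telencephalon were −3.59, −3.63 and −4.02 in O. nasuta. In O. ventralis they were −3.16, −5.90 and −5.88. The ratio of unc13b to unc13a was higher in the olfactory bulbs by 2.26 (SD 1.59, 7 of 9 fish, adjusted p = 0.0256), and the 2 fish in which it was not higher were those whose bulb library lay nearest to the telencephalon. Leaving out fish 2 of O. nasuta or fish 2, 4 or 5 of O. ventralis raised that adjusted p to 0.0511. In the cerebellum the same ratio was lower in 10 of 10 fish (−1.31), with 3 and 2 reads of unc13b in O. nasuta and O. ventralis. The sizes of both unc13b values depend on the prior count, since the gene had few reads outside the bulbs. As unc13b passed the filter only through bulb libraries, the p of its bulb ratio is no independent support either.

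**Figure D4:**
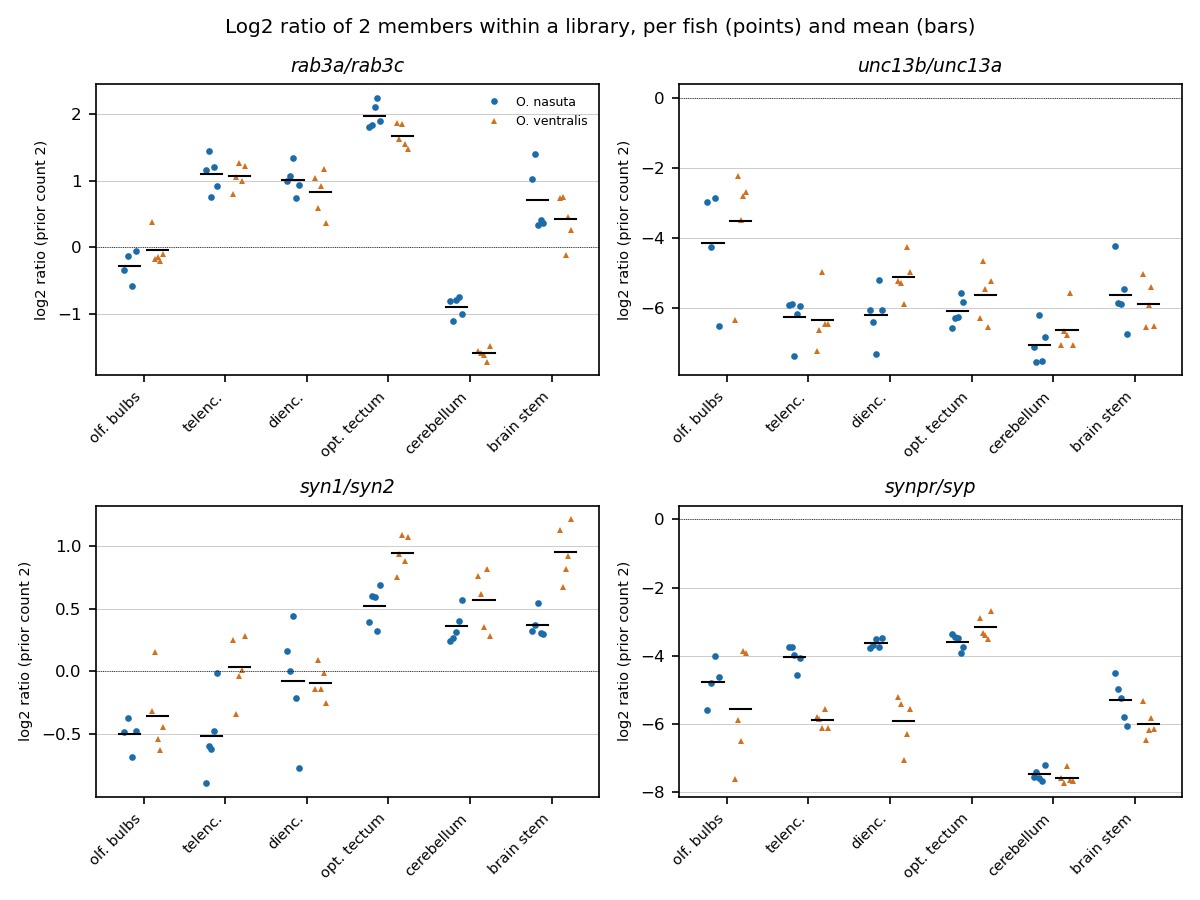
Log2 ratio of the levels of 2 genes within a library (prior count 2) for 4 pairs, by brain part, 1 point per fish (blue circles O. nasuta, orange triangles O. ventralis), with the mean per species as a bar. Cerebellar means of rab3a over rab3c (−0.89 and −1.60) are the lowest of the 6 parts and those of the optic tectum (1.98 and 1.67) the highest, and unc13b over unc13a is higher in the olfactory bulbs than in the mean of the other parts in 7 of 9 fish.

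The second question was whether differences between parts differ between species. Of the 46 synaptic genes, 1 passed the joint test over the 15 comparisons of species by part (synpr, joint adjusted p = 0.00159), against 0.402% of all genes. Synaptoporin in the diencephalon had 61.3, 55.1, 75.2, 65.9 and 73.4 CPM in O. nasuta against 18.1, 19.5, 2.18, 7.09 and 17.4 CPM in O. ventralis. In the telencephalon it had 61.9, 62.8, 51.8, 49.4 and 47.4 CPM in O. nasuta, while O. ventralis had 14.1, 13.8, 10.1, 14.3 and 10.5 CPM. The species did not overlap in either part. In the optic tectum they did, with 54.4, 55.6, 55.2, 41.2 and 50.5 CPM in O. nasuta against 75.9, 65.5, 64.4, 54.4 and 104 CPM in O. ventralis.

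Mean synpr levels in the diencephalon, optic tectum and telencephalon were 66.2, 51.4 and 54.7 CPM in O. nasuta, whereas O. ventralis had 12.9, 72.8 and 12.5 CPM. The optic tectum thus had the highest of the 3 means in O. ventralis and the lowest in O. nasuta. Counted as O. nasuta minus O. ventralis, the log2 fold of diencephalon over optic tectum differed by 2.95 (SE 0.49, adjusted p = 4.32e-04) and that of optic tectum over telencephalon by −2.57 (SE 0.48, adjusted p = 0.00549). The other 13 comparisons of synpr were not called. The second call was lost on leaving out O. nasuta fish 2, 4 or 5 or O. ventralis fish 3 or 5, with adjusted p values of 0.0505 to 0.285 and values of −2.34 to −2.61.

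Within single parts the species were compared in the same model without fish terms. That fit treats the libraries of a fish as independent, so its SE and p are not those of a test between fish. The paper made no such comparison. It held that current tools cannot handle variation both inside and among fish, and that species is confounded with aquarium. In the diencephalon 2 of 46 synaptic genes differed, against 1.46% of all genes: synpr was higher in O. nasuta by 2.35 on the log2 scale (SE 0.39, adjusted p = 6.95e-05) and syn2 by 0.50 (SE 0.14, adjusted p = 0.0485). The syn2 levels of the diencephalon were 259.5, 272, 216, 323 and 299.5 CPM in O. nasuta, while O. ventralis had 191, 213, 187, 186 and 198 CPM, which did not overlap. Its call was lost under 3 alternative settings and on leaving out 8 of the 10 fish one at a time, with values of 0.42 to 0.52 and adjusted p up to 0.174. In the telencephalon 1 gene differed, against 2.1% of all genes, which was synpr with 2.06 (SE 0.38, adjusted p = 4.97e-04).

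In the other 4 parts edgeR called 0 of 46 genes. The share called over all genes was 1.06% in the brain stem, 2.48% in the cerebellum, 2.73% in the olfactory bulbs and 1.82% in the optic tectum. At an unadjusted p of 0.05 there were 4, 6, 7 and 7 synaptic genes, respectively (8.7%, 13%, 15.2% and 15.2%, against 10.9%, 13.2%, 17.3% and 11.1% of all genes), and DESeq2 called 0, 0, 1 (vamp1) and 0. The diencephalon and telencephalon had 11 and 8 synaptic genes at that unadjusted p (23.9% and 17.4%, against 12.3% and 12.9% of all genes). Between the bulbs of the species vamp1 had a log2 difference of 1.09 (SE 0.33, adjusted p = 0.0503 with edgeR). The median absolute log2 difference between the species over the 46 genes was 0.18 to 0.26 in the 6 parts, and 0.23 to 0.30 over all genes. In the telencephalon it was 0.26 against 0.24 over all genes, and in every other part it was below that of all genes.

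**Figure D5:**
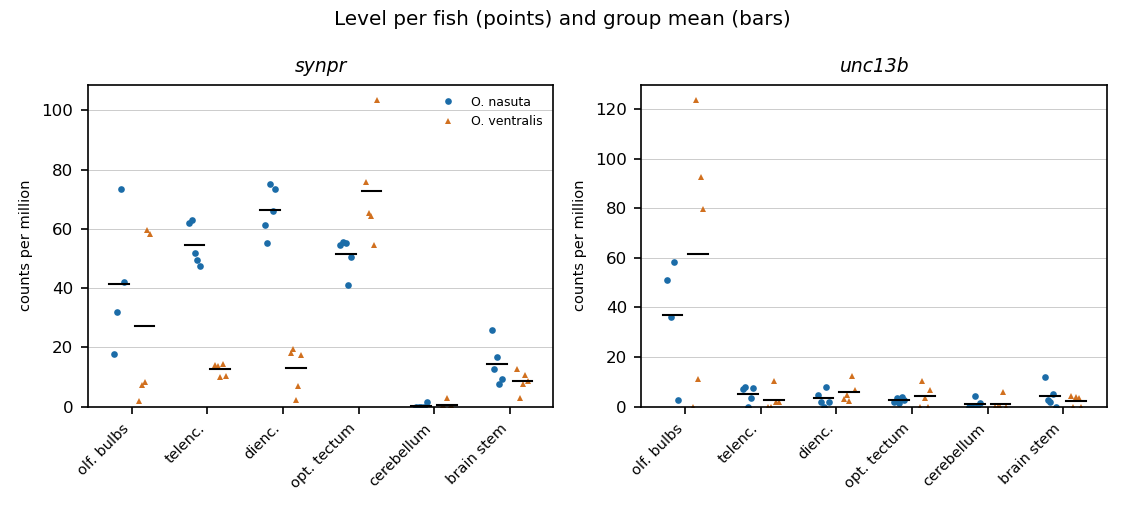
Level of synpr (left) and unc13b (right) in each brain part, in CPM, 1 point per fish (blue circles O. nasuta, orange triangles O. ventralis), with the group mean as a bar. For synpr the species are apart in the diencephalon (55.1 CPM and more against 19.5 CPM and less) and telencephalon and overlap in the optic tectum, and in the cerebellum nearly all points are at 0. For unc13b the bulb libraries spread from 0 to 124 CPM while no other library exceeds 12.4 CPM.

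Other genes of the vesicle cycle, listed by function and not matched by the symbols above, gave 52 tested genes of 101 listed, and 46 of these (88.5%, against 76.5% of all genes) passed the joint test over parts. Transporters that load transmitter had 3 tested genes, and all were higher in the olfactory bulbs of both species, against 9.33% of all genes. In the cerebellum slc17a6, a vesicular transporter of glutamate, was lower (log2 fold change −3.45 and −4.82, with 52.9 ± 25.5 and 19.6 ± 8.76 CPM). So was slc32a1, the vesicular transporter of inhibitory transmitters (−1.44 and −1.57). The glutamate transporters slc17a7 and slc17a8 were listed but not among the 3 tested, so glutamate loading as a whole was not covered. The monoamine transporter slc18a2 was lower in the optic tectum (−2.26 in both species).

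Of 12 tested genes of the vesicle proton pump, 5 were higher and 1 lower in the telencephalon of both species (against 12.6% and 9.01% of all genes), and 0 to 1 in each direction in the other parts. The examples atp6v1g1, atp6v1f and atp6v1a had log2 fold changes of 0.60 to 0.77 in O. nasuta and 0.53 to 0.85 in O. ventralis. Of 16 tested genes of vesicle retrieval, 5 were likewise higher and 1 lower in the telencephalon, among them dnm1 (dynamin, 0.87 and 1.06) and ap2m1 (a clathrin adaptor subunit, 0.89 and 0.73), and 4 were higher and 3 lower in the cerebellum, where 15% of all genes were higher and 17.1% lower, so that these counts were near those shares. Among them pacsin1 was higher (0.78 in both species). Other vesicle proteins had 10 tested genes, with 2 higher (cadps and rph3a) and 3 lower (sncg, svop and syngr3) in the cerebellum, against the same 15% and 17.1%, and sncg, a synuclein, was higher in the brain stem (1.70 and 1.52). Other active zone and priming genes had 11, of which 3 were higher and 4 lower in the cerebellum, again against 15% and 17.1% of all genes. Of these, ppfia2 (a liprin scaffold) was lower there (−1.81 and −2.28), and cask, another scaffold, was lower in the telencephalon (−1.84 and −1.59).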

How the data were processed

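RNA of 6 brain parts from 5 females of each species was sequenced from the 3′ end. After trimming, the authors used STAR 2.5.2b for mapping to the genome of Oreochromis niloticus and counted reads per gene and strand with HTSeq 0.6.1p1, discarding reads with a mapping quality under 10 or on more than 1 gene. The deposited counts per gene are not normalized. Reads outside genes or on several made up 16.8% of the uniquely mapped reads. Reads carry no molecular identifiers, and 3′ counts depend on how well the 3′ ends of O. niloticus fit both species.

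The libraries of a fish were paired by species and number, as in the study's own model (residuals correlated at 0.0534 within and −0.0134 between fish). In R 4.3.3, edgeR 4.0.16 kept genes above 15 CPM in at least 4 of 59 libraries, scaled by TMM, and fitted terms for fish and for part within species (quasi-likelihood, earlier fit, robust). Joint tests over 12 or 15 comparisons were adjusted by Benjamini-Hochberg over 11680 genes, followed by Holm's method within genes, at 0.05. The model between species lacks fish terms. Standard errors are those the F-statistic implies. DESeq2 1.42.0 served as an alternative. Named with full statistics were the up to 4 genes per role with the lowest joint p, each in its most extreme part, those called between species, and up to 3 of the other vesicle genes per function. The genes and lists were chosen with earlier results of these data known. The tests were checked on simulated data without differences between fish. That check therefore cannot bear on the fish terms, nor on their absence in the model between species. Some genes and 1 pair of genes are part of the counts but are not reported here by name.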

Additional observations from a re-analysis of the deposited data

Results flagged for a closer look

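In 46 groups of 4 or 5 fish tested for a value that stands apart, 7 had one, and chance gives about 1 in 20. The level of syt12 in the cerebellum of O. ventralis fish 1 was 346 CPM, above the 241 to 270 CPM of the other 4 fish. In the cerebellum synpr had a read in 1 fish of each species, fish 5 of O. nasuta (1.45 CPM) and fish 3 of O. ventralis (2.94 CPM). The level of vamp1 in the olfactory bulbs of O. nasuta fish 4 was 83.9 CPM, and this is one of the 2 bulb libraries whose nearest library was a telencephalon. In the olfactory bulbs of O. ventralis fish 3 stx16 had 72.8 CPM. In the cerebellum rims4 had 1287 CPM in O. ventralis fish 5 and unc13c had 659 CPM in O. nasuta fish 4, each above the other 4 fish.

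Differences between brain parts that differ between the species were found for synpr, with 2.95 on the log2 scale (O. nasuta minus O. ventralis) for diencephalon against optic tectum and −2.57 for optic tectum against telencephalon. Species, collection site, aquarium and order of dissection cannot be told apart.

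The bulb library of fish 5 of O. nasuta, used in no comparison, held 366 counts of the synaptic genes, with a read in 36 of them. With the scaling of all 60 libraries its summed level was 9529 CPM, below the 15295 to 17235 CPM of the other 4 bulb libraries of O. nasuta. Of its unscaled counts the synaptic genes took 1.419%, against 1.496% to 1.689% in those 4 libraries. The gap was thus much smaller without the scaling, whose part in it was not tested. A lower level of the synaptic genes cannot be read from the scaled sum.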

How the results depend on the processing

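Of 1286 values of named genes and ratios under alternatives, 1224 kept direction and side of the threshold, 58 lost the call, 4 gained it and 0 reversed. Of 308 counts and summed levels, 36 moved by more than 1.5 times or 1 SD. Of 86 calls of a gene in a part of both species, 24 were lost without at least 1 fish. The joint count over parts (38) stayed within 36 to 39. Leaving out 1 fish at a time gave 7 to 9 genes in the brain stem, 20 to 22 in the cerebellum, 9 to 13 in the diencephalon, 13 to 15 in the olfactory bulbs, 10 to 14 in the optic tectum and 11 to 17 in the telencephalon, where the 11 came without O. nasuta fish 2 (lost were rab3a, rab3c, snap91, stxbp5l, syt12 and vamp3). Shares of all genes under these settings are not given.

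The joint count of species by part was 2 (with syn1) under DESeq2 and, in an alternative chosen after seeing the data, without the 2 bulb libraries nearest to the telencephalon, and it was 1 to 2 on leaving out 1 fish. Counts between species were small and moved with the setting, from 0 to 1 in the brain stem (1 without those 2 bulb libraries), 0 to 3 in the cerebellum (3 with only the libraries of that part), 1 to 4 in the diencephalon (1 with the size factors of DESeq2 or all 60 libraries, 4 with only that part), 0 to 2 in the olfactory bulbs (1 with no filter, DESeq2, the filterByExpr filter, all 60 libraries or the current fit of edgeR), 0 to 1 in the optic tectum (1 with only that part) and 1 to 4 in the telencephalon (2 with no filter or without the 2 bulb libraries, 4 with only that part). On leaving out 1 fish they were 0 to 1, 0 to 0, 1 to 3, 0 to 2, 0 to 1 and 1 to 2. The cause was not tested. With all 60 libraries the summed level was 14584 CPM in the olfactory bulbs of O. nasuta, against 15846, and 18010 CPM in the telencephalon of O. ventralis, against 17746. The first of these means includes the bulb library of O. nasuta fish 5 at its scaled level. A lower level in the bulbs therefore cannot be read from that mean.

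Without the replicate block of fish, the counts called in both species were 8, 21, 12, 14, 12 and 17 in the order of parts above and the joint counts 38 and 1, while the ratios called fell from 23 to 13, since libraries of a fish are then not paired. Leaving out 1 fish gave 20 to 24. Depth limits low genes most: 3 counts are 21.9 CPM in the shallowest library used.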
